A study of Mus musculus with 4 samples.

Results

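The 49 genes described here encode proteins of the lysosome: 10 cathepsins, 13 other acid hydrolases, 3 co-factors or secreted lysosomal proteins, 8 membrane proteins, the transcription factors Tfeb and Tfe3, and 13 subunits of the proton pump V-ATPase. They were chosen by name. Each is represented by a probe set annotated with that symbol alone, and all 49 had a value among the 19938 genes measured; 48 of them had 1 such probe set. RNA of microglia, macrophages that reside in the brain, was hybridised to 4 Affymetrix Mouse Gene 1.0 ST arrays, 1 array for each of 4 groups. The groups were wild type (WT) of strain C57Bl with no agent, the same with lipopolysaccharide (LPS) for 3 h, Bid-/- with no agent, and Bid-/- with LPS for 3 h. The strain of the Bid-/- cells, and the sex, age and number of animals or cultures behind each array, are not stated in the labels. LPS is a component of bacterial outer membranes that macrophages sense through the receptor TLR4, and Bid is a pro-apoptotic member of the Bcl-2 family. The comparisons ask how the lysosomal genes differ with LPS, and whether they differ with the Bid-/- label.

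Lysosomes are acidic organelles in which hydrolases break down material taken up by phagocytosis, endocytosis and autophagy. The V-ATPase pumps protons into the lumen: its V0 sector spans the membrane and its V1 sector, in the cytosol, hydrolyses ATP. TFEB and TFE3 are related transcription factors that bind a motif shared by many lysosomal promoters, and their activity is set largely by phosphorylation and movement into the nucleus, which an RNA measurement does not read. Microglia depend on this system to digest debris and dead cells, and loss of several of these hydrolases causes inherited storage diseases.

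Values are the deposited ones, read as log2 expression, so a difference of 1 is 2-fold; the base of the logarithm is an assumption, since no source states it. They ran from 1.4 to 13.5, the array medians from 4.24 to 4.28, and correlations between arrays from 0.984 to 0.996. Probe sets differ in response, so values are compared between arrays for the same gene and not between genes. With 1 array per group, a difference between a pair of arrays has no replicate check and no p-value. The test that exists is a limma fit of genotype and LPS together over the 11326 genes that reached a floor of 4.26 on some array; it asks for a difference seen in both genotypes and has 1 residual degree of freedom. Of the 49 genes 48 entered it. Ctsk, best known from bone-resorbing osteoclasts, was below the floor on every array (3.60, 3.63, 3.65 and 3.58 for WT control, WT LPS, Bid-/- control and Bid-/- LPS). Atp6v0d2, a V0 subunit that is also prominent in osteoclasts, reached it on the WT control array alone (4.29, against 4.03, 4.17 and 4.05).

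Cell identity and labels were checked on the same arrays. The summed level of 7 measured microglia and macrophage markers lay between 12.21 and 12.56. Such sums are read between arrays and not between marker lists. P2ry12, a microglial purine receptor, read 3.90 to 4.38, below the floor on both LPS arrays, and Tmem119, a microglial membrane protein, 5.12 to 5.83. The summed level of 8 fibroblast and mural cell markers was 8.41 on the WT control array and 9.37, 9.47 and 9.21 on WT LPS, Bid-/- control and Bid-/- LPS; 7 of these markers reached the floor. No neutrophil marker of 5 reached it (summed level 5.71 to 5.86); for lymphocytes 1 of 4 did (5.49 to 5.67), for astrocytes 2 of 5 (6.08 to 6.17), for neurons 1 of 5 (6.04 to 6.28), for endothelium 3 of 5 (6.43 to 6.63) and for the oligodendrocyte lineage 3 of 4 (6.69 to 7.02). Bid itself read 5.69, 5.02, 5.53 and 5.97 in the order WT control, WT LPS, Bid-/- control, Bid-/- LPS, so its probe set does not separate the genotype labels; whether the probes lie in the deleted part is not known here. Uty, Kdm5d and Eif2s3y, all Y-linked, read higher on the arrays labelled Bid-/- by 0.63 to 1.61. Loss of Bid cannot be told apart from sex of the cells, strain background or culture in any genotype difference below.

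**Figure D1:**
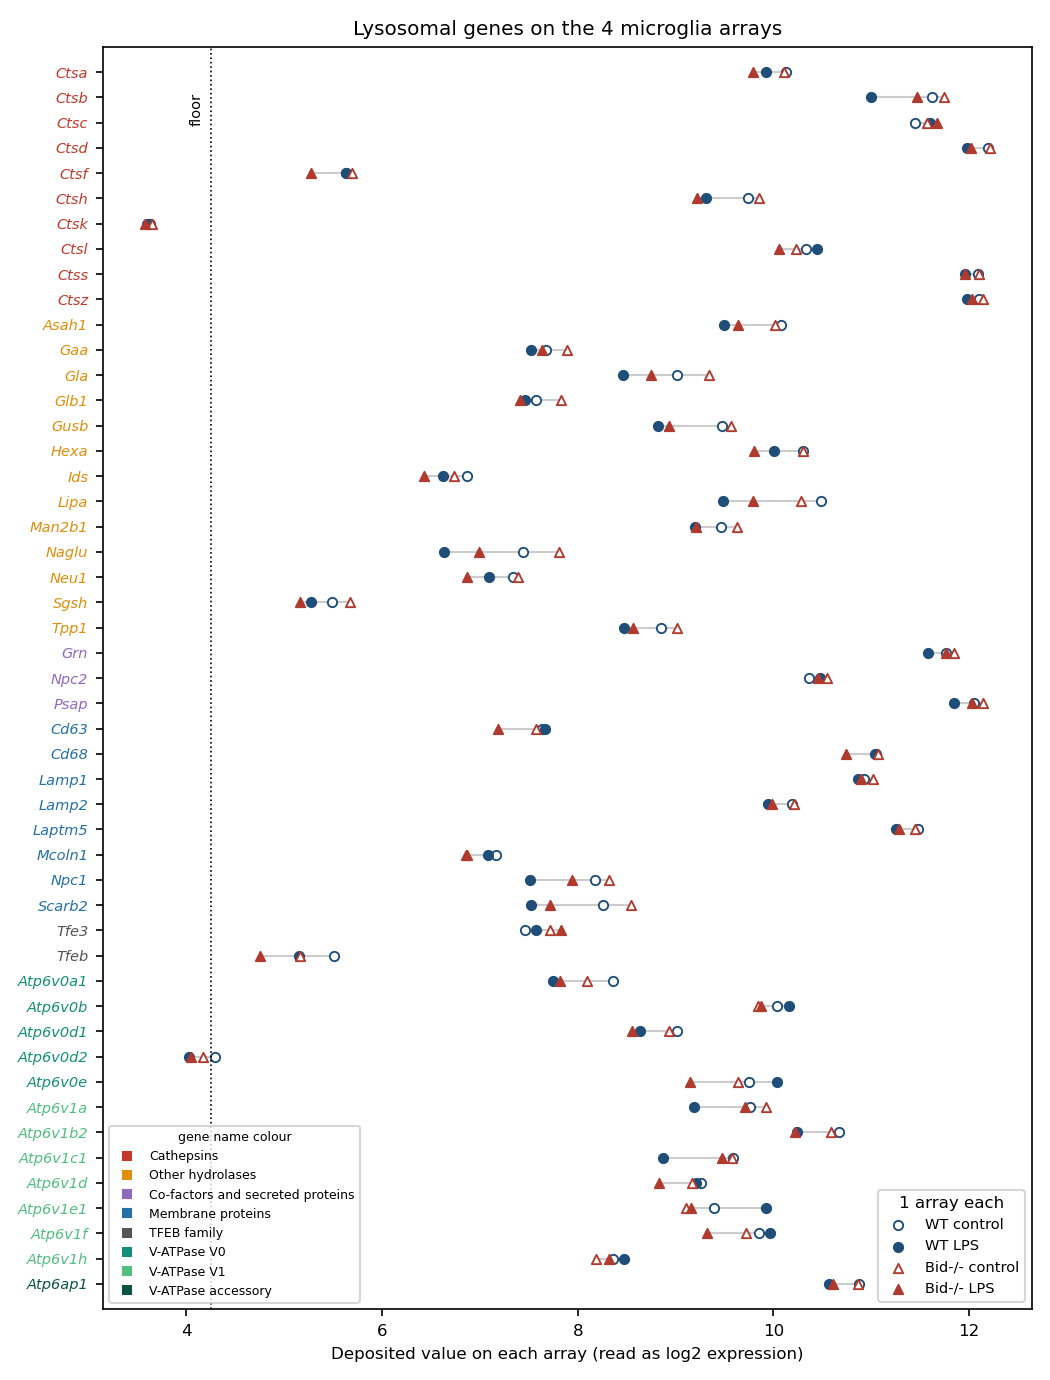
Deposited value (horizontal axis, read as log2 expression) of each of the 49 lysosomal genes (rows) on the 4 arrays, 1 array per group; circles are WT, triangles Bid-/-, open symbols no LPS and filled symbols LPS. Within most rows the filled symbols lie to the left of the open ones; rows are not comparable with each other, and the dotted line is the floor of 4.26.

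Promoter sequence is shown first, because TFEB and TFE3 are themselves among the genes measured and the 4-array values can be read beside the letters. Windows of 300 bases, 250 before to 50 after the start of the gene, came from RefSeq (mouse assembly GRCm38.p6) and matched 41 of the 49 genes; Ctsb, Ctsh, Asah1, Npc1, Atp6v0d2, Atp6v1b2, Atp6v1c1 and Atp6v1h were not matched. The E-box CACGTG was searched on both strands, and so were the longer forms TCACGTG, GTCACGTG and TCACGTGA and the full CLEAR palindrome, each of which contains it. At least 1 CACGTG lay in the windows of 15 of the 41 genes (36.6%), against 8.09% of 27025 genes with a window. TCACGTG was found in 13 (31.7%, against 4.29%), GTCACGTG in 10 (24.4%, against 2.55%), TCACGTGA in 7 (17.1%, against 1.12%) and the CLEAR palindrome in 0 (against 0.37%). The genes are lysosomal by choice and CACGTG is the motif TFEB is known for, so these shares describe the letters and no test was made of them. The matches that carried TCACGTGA are shown as 30-base stretches, 5′ to 3′ on the strand of the gene, 1 for each of the 7 genes, followed by that of Naglu, the hydrolase with the lowest adjusted p for LPS; capitals mark CACGTG.
Ctsa (chr2:164833749-164833778, + strand): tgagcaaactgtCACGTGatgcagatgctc
Ctsd (chr7:142387908-142387937, - strand): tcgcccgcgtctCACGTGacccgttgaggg
Gla (chrX:134601182-134601211, - strand): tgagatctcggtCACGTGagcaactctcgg
Mcoln1 (chr8:3500462-3500491, + strand): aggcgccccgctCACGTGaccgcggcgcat
Atp6v0d1 (chr8:105566050-105566079, - strand): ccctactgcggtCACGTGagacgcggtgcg
Atp6v0e (chr17:26676387-26676416, + strand): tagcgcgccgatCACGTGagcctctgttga
Atp6v1a (chr16:44139373-44139402, - strand): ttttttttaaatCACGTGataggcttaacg
Naglu (chr11:101070009-101070038, + strand): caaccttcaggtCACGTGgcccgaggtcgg
The stretch in Ctsa starts its motif 12 bases before the start of the gene, that in Ctsd 98 before, in Gla 194 before, in Mcoln1 45 before, in Atp6v0d1 3 before, in Atp6v1a 131 before and in Naglu 73 before, while that of Atp6v0e lies 3 bases after the start.

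The whole windows of Naglu, Gusb and Scarb2 are given because these were the genes at least 1.5-fold lower with LPS in both genotypes, and that of Atp6v0e because it differed most between the genotype labels; capitals mark CACGTG.
Naglu (chr11:101069844-101070143, + strand): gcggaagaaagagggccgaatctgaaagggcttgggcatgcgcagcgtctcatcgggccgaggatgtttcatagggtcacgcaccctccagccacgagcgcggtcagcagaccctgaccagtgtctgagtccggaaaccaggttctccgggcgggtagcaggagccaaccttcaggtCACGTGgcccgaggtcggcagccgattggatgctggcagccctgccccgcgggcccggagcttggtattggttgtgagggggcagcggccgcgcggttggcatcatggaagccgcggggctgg
Gusb (chr5:130003000-130003299, - strand): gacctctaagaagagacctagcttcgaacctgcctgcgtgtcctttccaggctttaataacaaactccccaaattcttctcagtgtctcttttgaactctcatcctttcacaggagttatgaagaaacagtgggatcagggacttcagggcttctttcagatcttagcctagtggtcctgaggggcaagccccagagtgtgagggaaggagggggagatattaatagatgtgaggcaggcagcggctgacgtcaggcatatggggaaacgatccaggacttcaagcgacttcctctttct
Scarb2 (chr5:92505608-92505907, - strand): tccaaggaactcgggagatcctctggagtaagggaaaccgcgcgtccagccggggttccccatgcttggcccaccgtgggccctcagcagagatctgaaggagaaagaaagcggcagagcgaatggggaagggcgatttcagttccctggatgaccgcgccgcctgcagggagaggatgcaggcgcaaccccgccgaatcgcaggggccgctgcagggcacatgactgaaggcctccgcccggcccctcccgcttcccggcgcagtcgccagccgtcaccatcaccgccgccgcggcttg
Atp6v0e (chr17:26676146-26676445, + strand): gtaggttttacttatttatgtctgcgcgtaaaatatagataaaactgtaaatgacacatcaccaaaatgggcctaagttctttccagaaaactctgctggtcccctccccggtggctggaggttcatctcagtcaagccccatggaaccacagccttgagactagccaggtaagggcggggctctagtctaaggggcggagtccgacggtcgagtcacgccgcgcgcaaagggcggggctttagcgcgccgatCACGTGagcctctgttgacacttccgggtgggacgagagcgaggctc
The windows of Gusb and Scarb2 do not hold these letters. Other motifs were also searched on both strands. For NF-kB, a restricted form of its site was searched, and other forms were not. That form was in the windows of 0 of the 41 genes (against 1.89% of all genes with a window). Whether other forms of the NF-kB site lie in these windows was not tested. TGACTCA, the AP-1 site, was found in 4 genes (9.76%, against 5.95%). GAGGAAGT, a form of the site of the macrophage factor PU.1, was found in 4 (9.76%, against 3.69%), namely Ctsc, Ctss, Gla and Gusb. For the LPS differences, the median was -0.16 over the 15 genes with CACGTG and -0.22 over the 26 without CACGTG in WT, and -0.32 and -0.29 in Bid-/-.

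With LPS the lysosomal genes read slightly lower as a group, and none passed the test. The median difference was -0.22 in WT, with 37 of 49 below 0 (background 54.7%), and -0.31 in Bid-/-, with 43 below 0 (background 60.1%), where the medians over all genes were -0.05 and -0.10; with an intensity trend removed, the median over all genes in Bid-/- moved to 0.00 and that of the 49 to -0.175. LPS values were below those of the untreated array in both genotypes for 36 of the 49 genes (73.5%), against 42.1% of all genes tested, and above them in both for 5 (Ctsc, Tfe3, Atp6v0b, Atp6v1e1 and Atp6v1h), against 26.5%. In the limma fit, after Benjamini-Hochberg adjustment over all genes, 0 of 48 were called higher (background 1.68% of 11326 genes) and 0 were called lower (background 1.56%). An unadjusted p under 0.05 with a lower value was found for 14 of 48 (29.2%), against 19.7% of all genes, and 0 had one with a higher value. The sizes were small: 9 genes were at least 1.5-fold lower in WT (background 11.1%) and 5 in Bid-/- (background 10.4%), none was 1.5-fold higher in WT (background 5.8%) or in Bid-/- (background 6.88%), and Lipa in WT alone reached 2-fold (background 2.08%). Gusb, Naglu and Scarb2 were 1.5-fold lower in both genotypes, 3 of 49 against a background of 5.35%. The lower values were thus common among the genes and shallow in size. Cell type markers also differed with LPS. The 8 fibroblast and mural cell markers were higher in WT in 8 of 8 cases (median 0.76) and in 3 of 8 in Bid-/- (median -0.27), and the 7 microglia and macrophage markers had medians of -0.42 in WT and -0.33 in Bid-/-, with 1, the chemokine receptor Cx3cr1, called lower (-1.12 and -1.41; limma adjusted p = 0.045). Their part in the lysosomal values was not tested. All of these comparisons read total RNA, in which fewer cells of a type and less RNA per cell cannot be told apart.

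**Figure D2:**
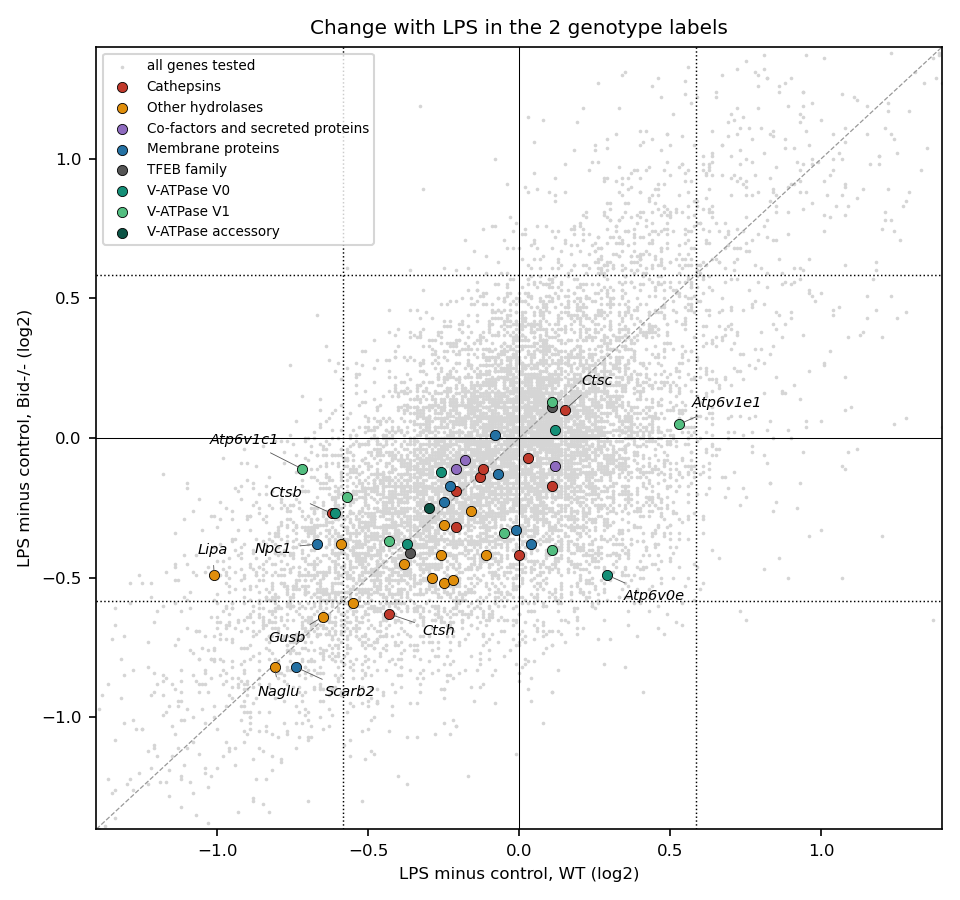
LPS difference (LPS minus control, log2) of each of the 49 genes in WT (horizontal axis) and in Bid-/- (vertical axis), coloured by role; each axis is a difference between 1 array and 1 array. Gusb, Naglu and Scarb2 lie past 1.5-fold lower on both axes, and no gene lies past 1.5-fold higher on either.

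Among the cathepsins, the main lysosomal proteases, the LPS differences were small for most members. The median was -0.12 in WT, with 6 of 10 below 0 (background 54.7%), and -0.18 in Bid-/-, with 9 of 10 below 0 (background 60.1%). The 10 include Ctsk, which was below the floor on every array. Ctsd, the aspartic protease, read 12.19 on WT control, 11.98 on WT LPS, 12.21 on Bid-/- control and 12.02 on Bid-/- LPS. Both LPS arrays were lower, by about the same amount (-0.21 and -0.19), and the adjusted p of the limma fit was 0.242. Ctss and Ctsz, the cysteine proteases cathepsin S and cathepsin Z, differed by -0.11 to -0.14 in both genotypes. Ctsb, a cysteine protease, read 11.62, 11.00, 11.74 and 11.47 in the same order. The WT LPS array was the low one: the difference was -0.62 in WT and -0.27 in Bid-/- (limma adjusted p = 0.13), and with gene span and intensity trends removed the WT difference, at -0.55, no longer reached 1.5-fold.

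Ctsh, a cysteine aminopeptidase, read 9.74 on WT control, 9.31 on WT LPS, 9.85 on Bid-/- control and 9.22 on Bid-/- LPS. Its LPS arrays lay below both untreated arrays, by 0.43 in WT and 0.63 in Bid-/- (limma adjusted p = 0.111); the 1.5-fold mark in Bid-/- was missed under each of the 3 other scalings tried. Ctsc, which activates granule serine proteases, was the cathepsin above 0 in both genotypes, by 0.15 and 0.10 (adjusted p = 0.475). Ctsl, a broad cysteine protease, read 10.33, 10.44, 10.23 and 10.06, higher with LPS in WT (0.11) and lower in Bid-/- (-0.17). Ctsf, another cysteine protease, showed no difference in WT (5.63 on both arrays) and -0.42 in Bid-/-. Ctsa, a carboxypeptidase that also protects beta-galactosidase and neuraminidase, differed by -0.21 and -0.32.

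Of the other hydrolases, all 13 read lower with LPS in both genotypes, except that Glb1 in WT, at -0.11 as deposited, came to 0.00 to 0.01 once an intensity trend was removed; 42.1% of all genes were below 0 in both. Their median was -0.29 in WT and -0.49 in Bid-/-. An unadjusted p under 0.05 with a lower value was found for 8 of the 13 (61.5%, against 19.7% of all genes), and 0 passed adjustment in the limma fit (1.56% of all genes were called lower). Naglu, which removes N-acetylglucosamine from heparan sulfate and is lost in Sanfilippo syndrome B, read 7.44 on WT control, 6.63 on WT LPS, 7.81 on Bid-/- control and 6.99 on Bid-/- LPS. Both LPS arrays were below both untreated arrays, and the difference was nearly the same in each genotype, -0.81 and -0.82. Its fitted LPS difference was -0.81 with a standard error of 0.14, and its adjusted p of 0.0604 was the lowest of the 48 genes in the limma fit.

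Gusb, the beta-glucuronidase, read 9.47, 8.82, 9.57 and 8.93 in the same order. The LPS arrays lay below the untreated ones by 0.65 in WT and 0.64 in Bid-/- (limma adjusted p = 0.0804). With intensity trends removed the Bid-/- difference was -0.55 to -0.53. Gla, the X-linked alpha-galactosidase A lost in Fabry disease, read 9.01, 8.46, 9.34 and 8.75. Each LPS array was below its untreated partner, by 0.55 and 0.59, and the WT LPS array was lowest (adjusted p = 0.0982). The -0.59 in Bid-/- lies just inside the 1.5-fold mark of 0.585, and it was short of the mark under each of the 3 other scalings.

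Lipa, the acid lipase that frees cholesterol from endocytosed esters, read 10.49 on WT control, 9.48 on WT LPS, 10.28 on Bid-/- control and 9.79 on Bid-/- LPS. This was the widest LPS difference of the 49 genes in WT, -1.01, beside -0.49 in Bid-/-; both LPS arrays were below both untreated arrays and the limma adjusted p was 0.0942. Asah1, acid ceramidase, read 10.08, 9.49, 10.02 and 9.64. Its LPS arrays were also the low ones, by 0.59 in WT and 0.38 in Bid-/- (adjusted p = 0.124); the WT value no longer reached 1.5-fold with intensity trends removed.

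Hexa, the alpha subunit of beta-hexosaminidase lost in Tay-Sachs disease, read 10.30, 10.01, 10.30 and 9.80, equal on the untreated arrays and lower on both LPS arrays (-0.29 and -0.50). The remaining hydrolases lay between -0.11 and -0.38 in WT and between -0.26 and -0.52 in Bid-/-. Among these, Tpp1, the peptidase lost in a form of Batten disease, differed by -0.38 and -0.45. Sgsh, the sulfamidase of the Sanfilippo pathway, differed by -0.22 and -0.51, and Neu1, the sialidase, by -0.25 and -0.52. Man2b1, a mannosidase, gave -0.26 and -0.42; Gaa, the acid glucosidase that digests glycogen, -0.16 and -0.26; Ids, the X-linked sulfatase lost in Hunter syndrome, -0.25 and -0.31; and Glb1, the beta-galactosidase, -0.11 and -0.42.

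The 3 co-factors and secreted proteins differed less. Psap, the precursor of the saposins that present sphingolipids to hydrolases, read 12.05 on WT control, 11.84 on WT LPS, 12.14 on Bid-/- control and 12.03 on Bid-/- LPS. It was lower with LPS in both genotypes by 0.21 and 0.11, although the Bid-/- LPS array was about level with the WT control array. Grn, progranulin, a growth factor delivered to lysosomes, differed by -0.18 and -0.08. Npc2, a cholesterol carrier of the lysosomal lumen, differed by 0.12 in WT and -0.10 in Bid-/-. For all 3 the Bid-/- difference was within 0.05 of 0 once intensity and span trends were removed.

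Of the 8 membrane proteins Scarb2 showed the widest difference. Scarb2, also called LIMP-2, carries glucocerebrosidase to the lysosome; it read 8.26 on WT control, 7.52 on WT LPS, 8.54 on Bid-/- control and 7.72 on Bid-/- LPS. Both LPS arrays were below both untreated arrays, by 0.74 and 0.82, and the fitted difference was -0.78 with a standard error of 0.14 and a limma adjusted p of 0.0692. Npc1, which exports cholesterol from the lysosome, read 8.18, 7.51, 8.32 and 7.94. Its LPS arrays were again the low ones, by 0.67 in WT and 0.38 in Bid-/- (adjusted p = 0.135); the WT value was -0.57 to -0.56 with intensity trends removed, short of 1.5-fold. The structural glycoproteins of the lysosomal membrane differed less: Lamp1 differed by -0.07 and -0.13 and Lamp2 by -0.25 and -0.23. Laptm5, a membrane protein of hematopoietic lysosomes, read 11.48, 11.25, 11.45 and 11.28, with both LPS arrays lower (-0.23 and -0.17). Cd68, the scavenger receptor used as a macrophage marker, read 11.05, 11.04, 11.07 and 10.74, and Cd63, a tetraspanin, 7.63, 7.67, 7.57 and 7.19; for both the Bid-/- LPS array was the low one. Mcoln1, the calcium channel TRPML1, differed by -0.08 and 0.01.

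The transcription factors went opposite ways. Tfeb read 5.51 on WT control, 5.15 on WT LPS, 5.16 on Bid-/- control and 4.75 on Bid-/- LPS. LPS arrays were lower in each genotype, by 0.36 and 0.41 (limma adjusted p = 0.108), and the untreated Bid-/- array was level with the WT LPS array. Tfe3 read 7.46, 7.57, 7.72 and 7.83, higher with LPS by 0.11 in each genotype.

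The V-ATPase subunits were mixed with LPS. Their median was -0.26 in WT, with 8 of 13 below 0 (background 54.7%), and -0.25 in Bid-/-, with 10 of 13 below 0 (background 60.1%). In the V0 sector, Atp6v0a1, an isoform of the large a subunit, read 8.36 on WT control, 7.75 on WT LPS, 8.09 on Bid-/- control and 7.82 on Bid-/- LPS. LPS arrays were the low ones, by 0.61 in WT and 0.27 in Bid-/- (limma adjusted p = 0.185); with intensity trends removed the WT value was short of 1.5-fold. Atp6v0d1, the widely expressed d subunit, differed alike in both genotypes (-0.37 and -0.38). Atp6v0b, a proteolipid of the membrane ring, read 10.04, 10.16, 9.84 and 9.87, a difference of 0.12 in WT that was -0.01 (to 2 decimals) after quantile normalization, and 0.03 in Bid-/-.

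In the V1 sector, Atp6v1c1, which helps to join the V1 and V0 sectors, read 9.59 on WT control, 8.87 on WT LPS, 9.58 on Bid-/- control and 9.47 on Bid-/- LPS. The WT LPS array stood below the other 3, which lay close together: the difference was -0.72 in WT and -0.11 in Bid-/- (limma adjusted p = 0.275). Atp6v1a, the catalytic subunit, showed a like order with 9.76, 9.19, 9.92 and 9.71, and its WT difference of -0.57 lies just outside the 1.5-fold mark. Atp6v1b2, the other nucleotide-binding subunit, read 10.67, 10.24, 10.59 and 10.22, lower with LPS by 0.43 and 0.37. Atp6v1h, a regulatory subunit, differed by 0.11 and 0.13 and Atp6v1d, of the central stalk, by -0.05 and -0.34. Atp6ap1, an X-linked accessory protein of the pump, read 10.87, 10.57, 10.86 and 10.61, with both LPS arrays lower (-0.30 and -0.25). Atp6v0e, Atp6v1e1 and Atp6v1f are described with the genotype differences.

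Lysosomal genes outside the 49 included some with wider LPS differences. Among 22 other hydrolases with a value the median was -0.41 in both genotypes (to 2 decimals). Of these, 19 were below 0 in both (42.1% of all genes tested), and 2 of 20 tested were called lower (background 1.56%). Galc, the galactosylceramidase lost in Krabbe disease, fell from 6.95 to 5.24 in WT and from 7.05 to 5.75 in Bid-/- (limma adjusted p = 0.0374). Pla2g15, a lysosomal phospholipase, fell from 7.95 to 6.57 and from 7.85 to 6.32 (adjusted p = 0.0327). Among 23 other membrane and carrier genes, 2 of 20 tested were called lower (background 1.56%) and 0 higher (background 1.68%), with medians of -0.41 and -0.30. Ctns, the cystine exporter cystinosin, fell by 1.15 and 1.14 (adjusted p = 0.0327), and Slc29a3, a nucleoside transporter, fell by 1.04 and 1.20 (adjusted p = 0.045). Slc17a5, the sialic acid exporter sialin, read 1.75 and 1.12 lower but was not called (adjusted p = 0.0527). In the remaining lists 0 genes were called in either direction (background 1.68% higher and 1.56% lower): 10 other V-ATPase genes tested (unadjusted p under 0.05 in 0), 3 cystatins (in 0), 13 sorting genes (in 1), 14 genes of TFE factors and nutrient sensing (in 4) and 18 autophagy genes (in 5). Those with a lower value were 1 sorting gene (7.69%), 2 sensing genes (14.3%) and 4 autophagy genes (22.2%), against 19.7% of all genes.

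Without LPS, no lysosomal gene differed by 1.5-fold between the genotype labels. The median difference (Bid-/- minus WT) was 0.02, against 0.01 over all genes, and 0 of 49 were 1.5-fold higher (background 1.45%) or lower (background 0.44%). The limma fit takes genotype over all 4 arrays, with and without LPS, so its p-values are not for the untreated pair alone. It called 0 of 48 genes for genotype (background 0.0%, 0 of 11326). An unadjusted limma p under 0.05 was found for Tfeb (0.0208) and Atp6v1e1 (0.044), against 6.26% of all genes. For Atp6v1e1 the difference was -0.28 without LPS and -0.76 with it. Within the 49 genes the signs differed between the V-ATPase subunits and the other members. Of the 36 genes outside the V-ATPase 26 read higher on the untreated Bid-/- array (25 to 29 under the 3 other scalings), with a median of 0.07, while 12 of 13 V-ATPase subunits read lower, with a median of -0.11; the background below 0 was 45.8%, and 10 of 13 were below 0 under each of the 3 other scalings. Atp6v1c1 and Atp6ap1, at -0.01, were among the 12. Of 14 other V-ATPase genes outside the 49, 8 were below 0, with a median of -0.035. Within the 49 the widest differences were 0.37 for Naglu and -0.35 for Tfeb. Both kept their size with LPS, at 0.36 and -0.40, so their lines in the plot of genotype differences are short. Markers of fibroblasts and mural cells were higher on the untreated Bid-/- array in 8 of 8 cases, with a median of 0.66 and a largest difference of 2.15 for Dcn, a matrix proteoglycan; their part in these differences was not tested.

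With LPS, the differences between the genotype labels were wider, and 4 V-ATPase subunits reached 1.5-fold as deposited. Ctsb, 0.47 higher as deposited, also reached it after quantile normalization (0.59) and with an intensity trend removed (0.59), where Atp6v1f did not. The median over the 49 genes was 0.01, equal to that over all genes, with 23 below 0 (background 47.8%); 1 gene was 1.5-fold higher (background 4.69%) and 3 were 1.5-fold lower (background 6.07%). Across all genes the spread of this comparison was also wider, with a standard deviation of 0.36 against 0.21 without LPS.

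Atp6v0e, a small subunit of the membrane sector, read 9.75 on WT control, 10.04 on WT LPS, 9.64 on Bid-/- control and 9.15 on Bid-/- LPS. The Bid-/- LPS array was the lowest and the WT LPS array the highest, a difference of -0.89. LPS thus went with a higher value in WT (0.29) and a lower one in Bid-/- (-0.49); the difference of response was -0.78, with 6.06% of all genes at least 1.5-fold lower on this measure, and it was -0.62 to -0.73 under the 3 other scalings. Atp6v1e1, the peripheral stalk subunit E, read 9.39, 9.92, 9.11 and 9.16. Here the WT LPS array stood above the other 3, and both Bid-/- arrays were below both WT arrays, by 0.28 without LPS and 0.76 with it. Atp6v1e1 lies on chromosome 6 close to Bid, with 1 protein-coding gene between them in RefSeq order, so loss of Bid and a difference in the sequence around it cannot be told apart.

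Atp6v1f, a small subunit of the V1 central stalk, read 9.85 on WT control, 9.96 on WT LPS, 9.72 on Bid-/- control and 9.32 on Bid-/- LPS. The Bid-/- LPS array was the low one, by 0.64 against WT LPS; a further probe set of this gene gave 0.68 lower, and the value was short of 1.5-fold after quantile normalization (-0.46) and after removal of intensity (-0.57) or intensity and span trends (-0.48). Atp6v1f is on chromosome 6 as well, 693 places from Bid in gene order. Atp6v1c1 differed the other way, 0.60 higher on the Bid-/- LPS array, just inside the mark, and 0.65 to 0.71 higher under the 3 other scalings. Atp6v1a was also higher there, by 0.52, short of the mark as deposited and past it after quantile normalization (0.69) or with an intensity trend removed (0.59), but not with intensity and span trends removed (0.53). The difference of response of Atp6v1c1 was 0.61, with 3.26% of all genes at least 1.5-fold higher. Subunits of the same pump therefore stood on opposite sides of 0 in the same pair of arrays.

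**Figure D3:**
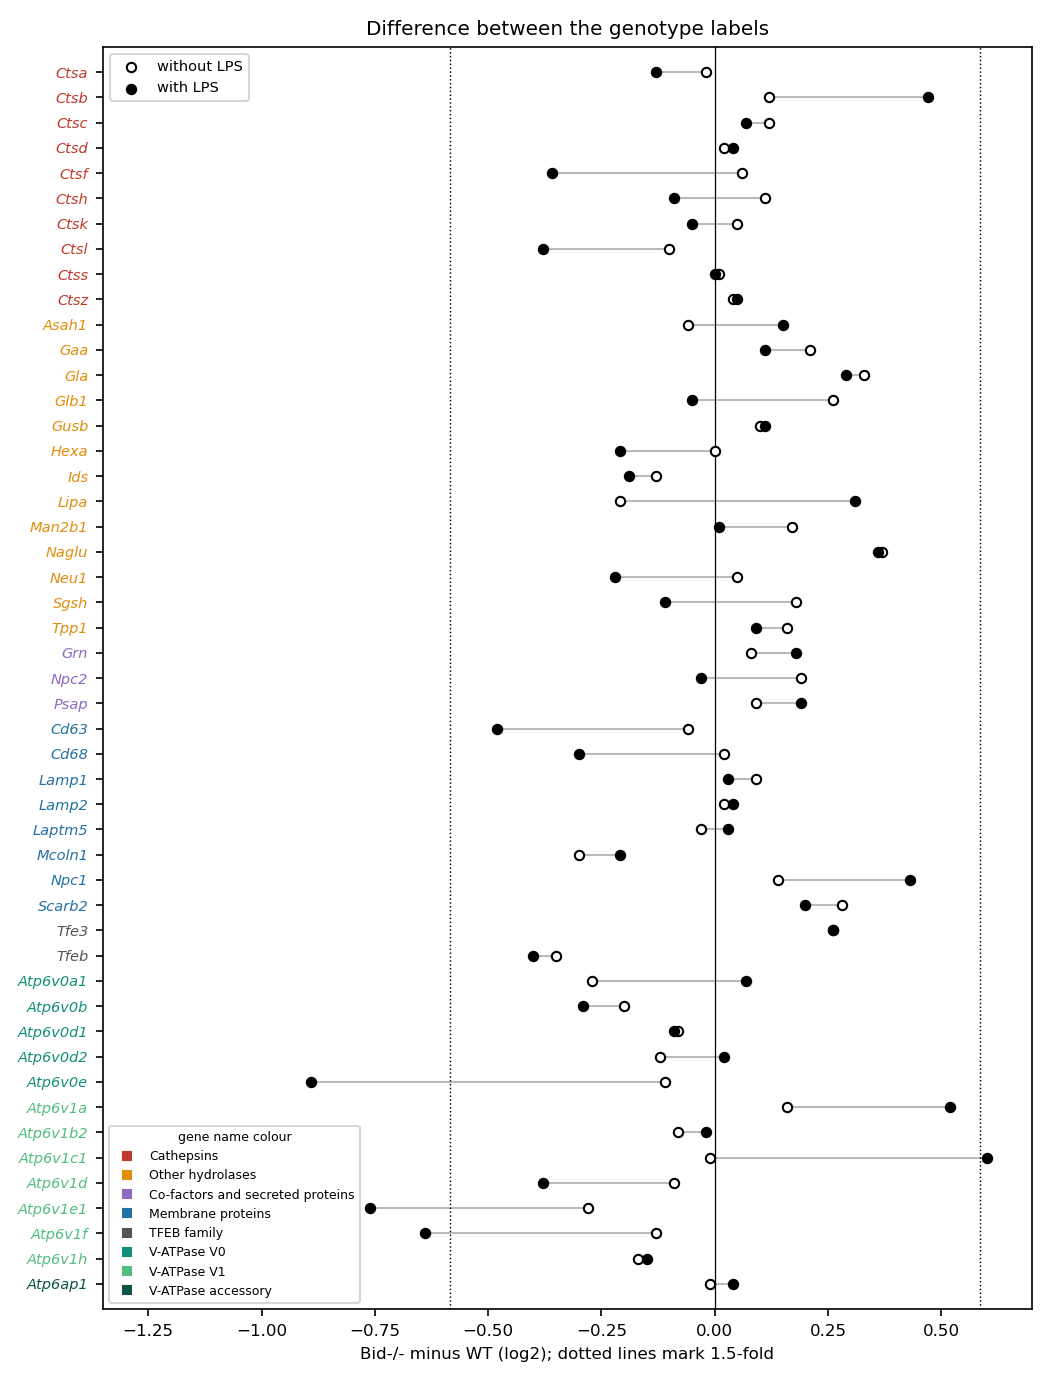
Difference between the genotype labels (Bid-/- minus WT, log2; horizontal axis) for each of the 49 genes (rows, coloured by role), open circles without LPS and filled circles with LPS, each a difference between 1 array and 1 array. The filled circles of Atp6v0e (-0.89), Atp6v1e1 (-0.76) and Atp6v1f (-0.64) lie past the left dotted line at 1.5-fold and that of Atp6v1c1 (0.60) past the right one; no open circle reaches either line.

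Outside the V-ATPase the widest differences on the LPS arrays were those of Cd63 (-0.48), Ctsb (0.47) and Npc1 (0.43). Cd63 and Cd68 (-0.30) were lower on the Bid-/- LPS array, and Ctsb and Npc1 were higher there; the WT LPS array was the lowest of the 4 for both. Lipa had the widest difference of response outside the V-ATPase, 0.52, which was 0.70 after quantile normalization. Over the 49 genes the difference of response had a median of -0.05, which turned to 0.0037 after quantile normalization and 0.0124 with intensity and span trends removed, with 29 below 0 (background 49.1%); the median of all genes was 0.00. On the same measure the fibroblast and mural cell markers had a median of -0.93, with 7 of 8 below 0 and the widest, -2.09, for the contractile protein gene Tagln; their part was not tested. Bid-/- values were above WT in both conditions for 18 of the 49 genes (background 31.7%) and below WT in both for 14 (background 27.2%).

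The difference on the LPS arrays varied with the span of the gene. Spearman's rho between gene span in RefSeq and the Bid-/- minus WT difference with LPS was 0.399 over 11019 genes and 0.224 over the 49, and 0.489 over the 13 V-ATPase subunits; without LPS it was 0.139 over all genes. These are descriptions across genes that share the same 4 arrays. The 11 lysosomal genes that span under 10 kb had a median of -0.22 on the LPS arrays and the 38 longer ones 0.03. Atp6v1f (2.7 kb), Cd68 (2.0 kb) and Atp6v0b (3.0 kb) are among the short genes and were lower, but 4 of the 11 were higher: Naglu (7.6 kb, 0.36), Grn (6.3 kb, 0.18), Tpp1 (7.5 kb, 0.09) and Atp6ap1 (7.6 kb, 0.04). By contrast Atp6v0e (23.3 kb), Atp6v1e1 (27.5 kb) and Atp6v1c1 (30.5 kb) span more than 10 kb. Removing intensity and span trends left Atp6v0e at -0.81 (to 2 decimals), Atp6v1e1 at -0.70 and Atp6v1c1 at 0.65. What makes the difference vary with span was not tested.

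**Figure D4:**
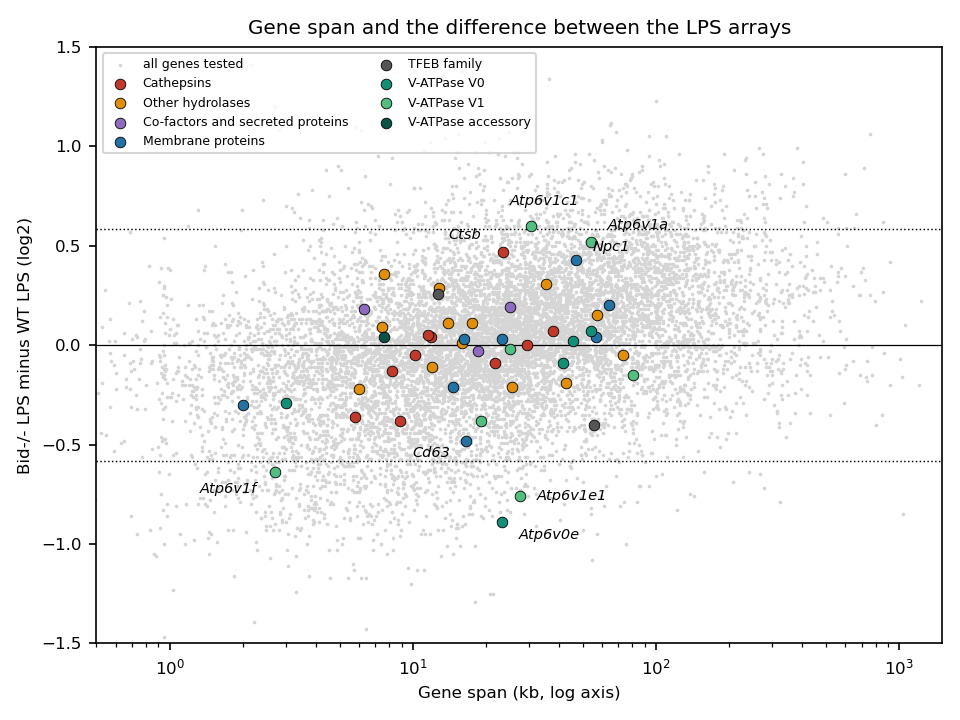
Bid-/- minus WT difference on the LPS arrays (log2, vertical axis) against gene span in RefSeq (kb, log axis) for the lysosomal genes, coloured by role, over all genes tested in grey. Of the 11 lysosomal genes under 10 kb, 7 lie below 0, such as Atp6v1f (2.7 kb, -0.64), and 4 above it, such as Naglu (7.6 kb, 0.36); Atp6v0e (23.3 kb) is the lowest of the 49 at -0.89.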

How the data were processed

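RNA of mouse microglia was measured on 4 arrays, 1 for each genotype and treatment. The authors deposited 1 value per probe set and array, taken here as log2 expression; the tools were Affymetrix Expression Console, RMA and Partek 6.2 per the submitters' processing notes, which do not say what each did. Quantile steps such as that of RMA hide a shift common to all genes. Of 28944 probe sets 21789 had 1 gene symbol in the platform annotation, 1621 several and 5534 none; 21698 matched RefSeq by Entrez identifier, which changed 0 symbols. The probe set with the highest mean was kept per gene (19938 genes). Genotype and LPS were fitted together with limma 3.58.1 in R 4.3.3 (eBayes with its trend option, Benjamini-Hochberg over 11326 genes, threshold 0.05), after the script was tested on simulated data. Values have 2 decimals, and 169 genes had a residual of exactly 0. Nothing says that arrays came from separate cultures. The 1 residual degree of freedom is how far the LPS differences in WT and in Bid-/- disagree, moderated across genes. The p-values therefore do not measure spread between replicate cultures or arrays, and the small number of arrays limits precision. Pairwise differences have no test; 1.5-fold was used to describe them. The alternatives were no floor, a floor raised by 1, quantile normalization, removal of intensity or of intensity and gene span trends, the mean of probe sets, eBayes without the trend, a variance floor for the rounding, and 2-fold in place of 1.5-fold. The genes given with all 4 values were those called or at least 1.5-fold different in any comparison, and the member of each role with the highest value. Ctsk (below the floor on every array) and Atp6v0d2 (above it on the WT control array alone) are given so as well. So are Ctsl, Cd63, Cd68, Tfeb and Atp6v1a, which were chosen after their values were seen. Pathway genes are named where called or 2-fold different in both genotypes. Those named under the other observations did not meet this rule. The members and lists were chosen with earlier results of these data known.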

Additional observations from a re-analysis of the deposited data

Results flagged for a closer look

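Atp6v0e, a small membrane subunit of the V-ATPase, drew attention because its LPS difference had opposite signs in the genotypes: 0.29 in WT and -0.49 in Bid-/-, a difference of response of -0.78. Each value rests on 1 array against 1 array, and the difference was not tested.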

How the results depend on the processing

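No paired analysis was possible because each group is 1 array. Leaving out an array was not run, since 3 arrays leave 0 residual degrees of freedom. No setting called any of the lysosomal genes higher with LPS or for genotype; over all genes, the share called for genotype was 0.354% after quantile normalization, 0.416% with an intensity trend removed, 0.619% with both trends removed, 2.49% with the variance floor and 0.0% otherwise. The number called lower with LPS, 0 of 48 as reported, was 2 of 47 with the floor raised by 1. It was 4 of 48 after quantile normalization, 4 with an intensity trend removed and 4 with intensity and span trends removed. These 4 were Gusb, Lipa, Naglu and Scarb2 each time. With a variance floor for the rounding it was 10 of 48. Over all genes, in the same order, 177 called lower (1.56%) became 522 (6.25%), 1118 (9.89%), 968 (8.56%), 1048 (9.26%) and 1910 (16.9%). Genes called higher went from 190 (1.68%) to 369 (4.42%), 810 (7.16%), 986 (8.72%), 1092 (9.65%) and 947 (8.36%). The median LPS difference in Bid-/- was -0.175 with an intensity trend removed. The median difference of response turned from -0.05 to 0.0037 after quantile normalization and 0.0124 with intensity and span trends removed. Genes 1.5-fold lower with LPS in WT numbered 5 with intensity and span trends removed, where 1 was higher; in Bid-/- they numbered 3 after quantile normalization, 2 with an intensity trend removed and 2 with both trends removed. On the LPS arrays, genes 1.5-fold higher in Bid-/- numbered 3 after quantile normalization and 3 with an intensity trend removed (Atp6v1c1, Atp6v1a and Ctsb in both); for the difference of response 2 were higher after quantile normalization. At 2-fold, 1 gene was lower with LPS in WT, 0 in Bid-/-, and 0 were higher or lower between genotypes with LPS or in response. For these the cause was not tested. The other 102 recomputed group values were within the limits, but many of them could hardly differ. Taking the mean of probe sets can change Atp6v1f only, since 48 of the 49 genes had 1 probe set. Leaving out the floor keeps each pairwise difference as deposited. With 1 array a group, no difference between 2 arrays can be set against replicate spread.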

Other observations

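The subunits of Ragulator were low on the Bid-/- LPS array; they were singled out after their values were seen, and the whole list of 16 TFE and nutrient-sensing genes had 7 below 0 and a median of 0.04 in that comparison. Ragulator anchors mTORC1 to the lysosome, and Lamtor1 to Lamtor5 differed from WT LPS by -0.72, -0.85, -0.51, -0.80 and -0.70, beside -0.17 to 0.01 without LPS; under the 3 other scalings Lamtor3 was at -0.46 to -0.33 and the rest at -0.86 to -0.62. In the same list Fnip1 and Fnip2, partners of folliculin, were each 0.67 higher on the Bid-/- LPS array, the kinase Mtor was 0.58 higher and its partner Rptor 0.43 higher. Lamtor1 to Lamtor5 span 3.1 to 10.2 kb, while Fnip1, Fnip2, Mtor and Rptor span 80.1, 112.2, 109.1 and 296.7 kb. Differences in this comparison varied with gene span over all genes, and the part of span here was not tested. Map1lc3b, an autophagosome marker, read 7.53 on WT control, 8.03 on WT LPS, 7.73 on Bid-/- control and 7.37 on Bid-/- LPS. Cstb, a cytosolic inhibitor of cathepsins, read 8.60, 9.18, 8.66 and 8.39. In both Map1lc3b and Cstb, WT LPS was the highest array and Bid-/- LPS the lowest. Each was the lowest of its list in the Bid-/- minus WT difference with LPS, at -0.66 and -0.79. The 18 autophagy genes had a median of 0.145 there, with 8 below 0 and 10 above. The 7 cystatins, of which 3 were tested, had a median of -0.13, with 5 below 0 and 2 above.

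Clcn7, the lysosomal chloride exchanger, read 8.14 on WT control, 7.36 on WT LPS, 8.48 on Bid-/- control and 8.43 on Bid-/- LPS. The WT LPS array was low and the genotype difference with LPS was 1.07. This was the highest of 23 other membrane and carrier genes. Their median was 0.12, with 13 above 0, 9 below and the lowest, Tmem192, at -0.74. Cst7, cystatin F, an inhibitor of cathepsins in immune cells, read 8.16, 8.69, 9.19 and 8.90, with the WT control array lowest; like Cstb it was higher with LPS in WT (0.53, beside 0.58 for Cstb) and lower in Bid-/- (-0.29, beside -0.27). Tfec and Mitf, relatives of Tfeb, read higher with LPS in both genotypes, by 0.89 and 0.73 and by 0.58 and 1.05. Neither passed the limma test (adjusted p = 0.0554 and 0.0867). The 16 TFE and nutrient-sensing genes had median LPS differences of -0.13 in WT, with 9 below 0, and -0.085 in Bid-/-, with 11 below 0.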
